A study of Fundulus heteroclitus with 5 samples.

Results

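The features described are 92 cDNA features of a *Fundulus heteroclitus* metabolic microarray whose share of the fluorescence differed by no more than 1.5-fold between an array hybridised with 50X RNA and one hybridised with 10X RNA. They were chosen from the authors' sum-normalised table, which lists 212 of the 384 features of the array, as those with a ratio of the 50X value to the 10X value from 1/1.5 to 1.5 (43.4% of the listed features). Of the other 120 listed features, 36 had a ratio above 1.5 and 84 a ratio below 1/1.5. The choice rests on the deposited values of the 10X and 50X arrays, so the ratios between those arrays are given as a description. The 0.1X, 1X and 5X arrays took no part in the choice, and the tests reported here were run on them.

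The array carries cDNAs for enzymes and other proteins of central metabolism. Heart muscle draws nearly all its ATP from oxidative phosphorylation, in which electrons from NADH and FADH2 pass along the respiratory chain and the resulting proton gradient drives ATP synthase. The NADH and FADH2 come from the oxidation of fatty acids, from glycolysis and from the tricarboxylic acid cycle, whose genes are therefore expressed in cardiac tissue. The abundance of one such mRNA relative to the others is followed between arrays through the share of the total fluorescence held by its feature. For dim features that saturated, the paper proposes truncated labelled RNA or less printed DNA. The shares of different features therefore need not rank their mRNAs by abundance. A share can hold only if the feature and the total change in proportion.

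RNA from *F. heteroclitus* cardiac tissue of laboratory-acclimated fish was amplified, coupled to Cy5 or Cy3 and hybridised to 5 two-colour arrays, 1 each at 0.1X, 1X, 5X, 10X and 50X of the usual RNA concentration. The labels state only the amount of labelled RNA as differing between the arrays, with no genotype, treatment or time compared. The paper states that Cy5-labelled RNA was used at a lower concentration than Cy3-labelled RNA. Fluorescence did not follow the amount of RNA over all 5 arrays, as given below. The pairing of Cy5 and Cy3 RNA of 1 concentration on 1 array was read from the sample titles and the column names. The methods instead state a loop design, in which the differently labelled aliquots of a sample go to separate arrays. Every comparison of Cy5 with Cy3 within an array, loess included, therefore depends on this reading of the names. Each feature was printed as 4 spots, so a feature had 4 Cy5 and 4 Cy3 values on an array. There was 1 array per concentration and no replicate array, so every SD below is over the 4 sets of spots of an array, covers technical error within it, and says nothing of the spread between arrays.

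The files give each feature as a number and do not pair the numbers with genes. The 92 members are therefore described by number, none can be assigned to a pathway, and the tissue could not be checked against cardiac markers. Share is the mean fluorescence of the 4 spots of a feature as a percentage of the total of the 212 listed features, in 1 dye on 1 array. The mean of the Cy5 and Cy3 shares follows the authors' table, which the same calculation met within 2 units for 1057 of 1060 values. An average listed feature would hold 0.472%. Rank is counted among the 212 listed features, with 1 for the highest share.

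At the lower limit of the chosen range, feature 306 was just inside, with deposited values of 781 at 50X and 1166 at 10X and a ratio of 0.670. Feature 154 was just outside, with 919 at 50X and 1382 at 10X, a ratio of 0.665. At the upper limit, feature 41 was just inside with 1009 at 50X and 676 at 10X (ratio 1.49), and feature 202 was just outside with 1881 at 50X and 1251 at 10X (ratio 1.503). The features on either side of a limit thus had nearly the same ratio.

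Together the 92 members held 48.9% of the listed fluorescence at 0.1X, 46.3% at 1X, 47.0% at 5X, 50.4% at 10X and 51.5% at 50X. The sum was therefore almost level across the concentrations, while the distribution within it was not. The median member held 0.289% at 0.1X, 0.378% at 1X, 0.444% at 5X, 0.481% at 10X and 0.469% at 50X. The median of all listed features was 0.278%, 0.345%, 0.408%, 0.395% and 0.342% in that order. The median member thus stood a little above the median listed feature at 0.1X and further above it at 10X and 50X, the arrays of the choice.

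The highest and lowest members lay farthest apart at 0.1X. Member shares ran between 0.203% and 5.36% at 0.1X, between 0.275% and 2.34% at 1X, and between 0.310% and 1.504% at 5X. The highest share was 26.4 times the lowest at 0.1X, 8.51 times at 1X and 4.85 times at 5X. The range opened again to 6.59 times at 10X and 8.55 times at 50X. The upper quartile over the lower quartile was 1.75 at 0.1X, 1.75 at 1X, 1.44 at 5X, 1.90 at 10X and 1.94 at 50X, so that the bulk of the members was not spread more widely at 0.1X than at 10X and 50X. The 5 highest members of each array took 31.8% of the members' fluorescence at 0.1X, 18.0% at 1X, 13.4% at 5X, 12.3% at 10X and 13.2% at 50X. A few features thus carried much of the members' signal at 0.1X and fewer of them stood out at 5X and above.

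Each dye taken singly gave the same order of medians over the lower arrays. The median Cy5 share was 0.341% at 0.1X, 0.430% at 1X, 0.454% at 5X, 0.467% at 10X and 0.472% at 50X. The median Cy3 share was 0.252% at 0.1X, 0.338% at 1X, 0.419% at 5X, 0.492% at 10X and 0.455% at 50X. The Cy3 median thus differed more between 5X and 0.1X than the Cy5 median did.

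**Figure D1:**
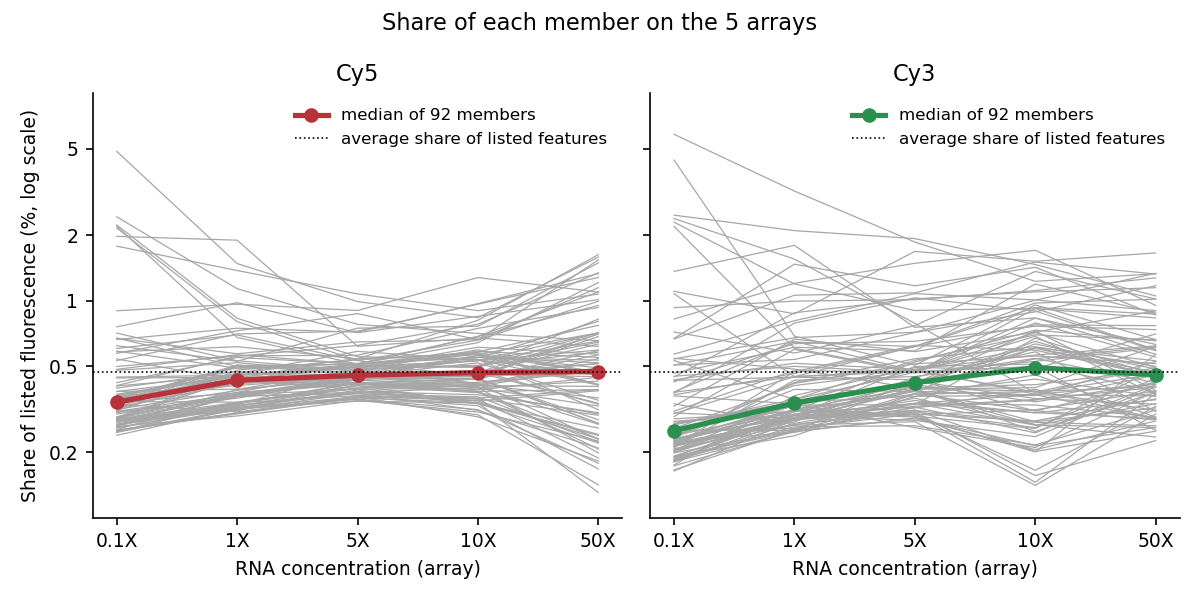
Share of the listed fluorescence (%, log scale) on the 5 arrays in Cy5 (left) and Cy3 (right), with a grey line for each of the 92 members, a coloured line for their median and a dotted line for the average listed feature (0.472%). Most lines lie lower at 0.1X than at 5X, a few start far above the rest at 0.1X, and the Cy5 lines spread out again at 50X.

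With the dyes averaged, the highest share over 0.1X, 1X and 5X was within 1.5 times the lowest in 43 of 92 members, 46.7%, against 48.6% of the 212 listed features. In Cy5 this held for 68 members, 73.9% against 70.3% of listed features, and in Cy3 for 32 members, 34.8% against 33%. The members' percentages were thus near those of the whole list in both dyes. The median ratio of highest to lowest share over the 3 arrays was 1.55 for members (range 1.04 to 6.55), and 1.51 for all listed features. The count rested on the 0.1X and 5X arrays and on the scaling. Without the 0.1X array it was 88 members (94.8% of listed features), and 82 in Cy3 (86.3%). Without the 5X array it was 74 (85.8%), and 60 in Cy3 (66.5%). Leaving an array out of a ratio of highest to lowest can only raise the count or leave it equal. The count was 74 with the median of the listed features in place of their sum, and 21 with the sum over all 384 features. The percentage of listed features was not calculated for these scalings.

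Set against the 10X array, which took part in the choice, fewer members held. In 35 members the shares at 0.1X, 1X and 5X all lay within 1.5-fold of the share at 10X, 38% against 48.6% of listed features. Without the 0.1X array the count was 70 members, and the percentage of listed features was not calculated. With all 3 lower arrays the share held in Cy5 for 56 members (67.5% of listed features) and in Cy3 for 19 members (29.2% of listed features). Over all 5 arrays, 16 members kept within 1.5-fold, where 7.55% of listed features did, and these 16 were all the listed features that could, since the rule fixed the step between 50X and 10X. Over all 5 arrays the count was 19 members in Cy5 (11.3% of listed features) and 7 in Cy3 (3.3% of listed features).

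Most of the difference lay at 0.1X. The share at 5X was within 1.5-fold of the share at 0.1X in 46 members (50.5% of listed features), was above 1.5 times it in 39 (44.3%) and below 1/1.5 of it in 7 (5.19%). The share at 1X was within 1.5-fold of the share at 0.1X in 74 members (85.8% of listed features). The share at 5X was within 1.5-fold of the share at 1X in 88 members (94.8% of listed features). Shares thus mostly held between 5X and 1X, and between 5X and 0.1X they held about as often as not, in members as in the whole list.

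The size of the difference was also that of the list. The median log2 ratio of the 5X share to the 0.1X share was 0.52 in members and 0.53 in all listed features. For 1X over 0.1X it was 0.34 in members and 0.35 in all listed features. Relative to the shift of the whole list, the median member thus differed by only -0.01 on the log2 scale between 5X and 0.1X. By dye, the median log2 ratio of 5X to 0.1X in members was 0.47 in Cy5 and 0.64 in Cy3.

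In Cy5, 70 members were within 1.5-fold between 5X and 0.1X (71.2% of listed features), 15 were above (23.6%) and 7 below (5.19%). In Cy3, 34 members were within 1.5-fold (35.8% of listed features), 51 were above (56.6%) and 7 below (7.55%). A share at 5X over 1.5 times that at 0.1X was therefore the usual case in Cy3 and the exception in Cy5. No test was made of this difference between the dyes. It depended on the low end of the fluorescence. Over 0.1X, 1X and 5X, 68 members were within 1.5-fold in Cy5 and 32 in Cy3. With the 5th percentile of the fluorescence subtracted first, 9 were in Cy5 and 12 in Cy3, so that Cy5 was no longer the steadier dye. The counts between 5X and 0.1X alone were not calculated with this subtraction.

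**Figure D2:**
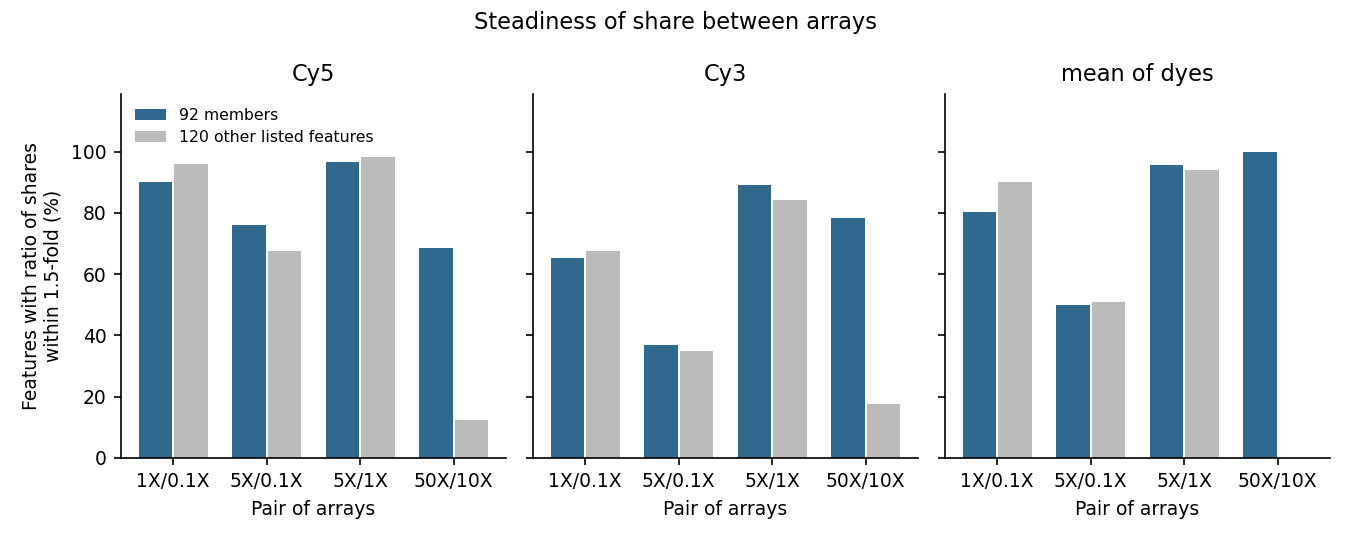
Percentage of features whose ratio of shares between 2 arrays was within 1.5-fold, in Cy5, Cy3 and the mean of the dyes, for the 92 members (blue) and the 120 other listed features (grey). For the mean of the dyes the 50X/10X bars are 100% and 0 by the rule of choice, whereas for 5X/0.1X the members stand at 50% beside other features of nearly the same height.

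The share differed in one order over the lower arrays in most members. It was higher at each step over 0.1X, 1X and 5X in 61 members (70.8% of listed features) and lower at each step in 9 (8.49%). Over all 5 arrays the lowest share was that at 0.1X in 66 members, against 43.4% of listed features. This last count includes the 10X and 50X arrays, which chose the members and so left out the 84 features with a lower share at 50X than at 10X. In 8 members the 0.1X share was the highest of the 5 (6.60% of listed features).

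Limma was used to test whether log2 share moved with log2 concentration over 0.1X, 1X and 5X, with the dyes averaged to 1 value per array and p-values adjusted (Benjamini-Hochberg) over all 212 features. The slope differed from 0 in 58 of 92 members, where 62.7% of listed features were called. It was above 0 in 50 of them (55.7% of listed features) and below 0 in 8 (7.08%). The median slope was 0.09 log2 units per doubling of the concentration in members and 0.10 in all listed features. The members' count was thus near that of the list. The test has 1 residual degree of freedom per feature before moderation. Its p-values set the slope against the scatter of 3 arrays about a line, moderated over the features. They do not measure the spread between replicate arrays.

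These directions depend on the scale on which a share is taken. When the median of the listed features stood in place of their sum as the divisor, the slope was called in 15 members, 3 above 0 (2.36% of listed features) and 12 below 0 (15.6%). With the 5th percentile of the fluorescence of all 384 features subtracted first, 19 members were called, 15 above 0 (23.1% of listed features) and 4 below 0 (4.72%).

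The 7 members below 1/1.5 between 5X and 0.1X were all among the 30 members of highest mean share. Among those 30 the median ratio of the 5X share to the 0.1X share was 1.17, with values between 0.153 and 2.25. It was 1.61 in the 31 members of middle mean share (0.730 to 2.33) and 1.46 in the 31 of lowest mean share (1.09 to 1.79). With the dyes averaged, the members of low share thus all differed one way, while members of high share differed in both directions. The median ratio over all listed features was 1.44, within the range of each class. In Cy3 alone the lowest ratio among the 31 members of lowest mean share was 0.988. The mean share that formed these classes includes the shares compared, so no test was made.

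Feature 375 had the highest mean share of the members over the 3 lower arrays. It held 5.36 ± 2.3% (SD, 4 spot sets) at 0.1X, 2.34 ± 0.74% at 1X, 1.43 ± 0.47% at 5X, 1.03 ± 0.16% at 10X and 1.46 ± 0.51% at 50X. Its rank was 2 at 0.1X, 2 at 1X, 4 at 5X, 12 at 10X and 5 at 50X, so that it stayed among the highest features while its share differed several-fold. The slope was -0.34 (SE 0.02, limma adjusted p = 0.0270). With the 5th percentile subtracted the slope was -0.27 (limma adjusted p = 0.0758). Its 4 Cy5 spots at 0.1X read 10722, 44662, 28417 and 6560, so that this value rested on spots that differed several-fold. Its 4 Cy3 spots at 0.1X read 5035, 5722, 4564 and 2953.

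Feature 69, the second highest, kept within 1.5-fold over the 3 lower arrays. It held 2.13 ± 0.49% at 0.1X, 1.74 ± 0.26% at 1X, 1.504 ± 0.25% at 5X, 1.18 ± 0.46% at 10X and 1.06 ± 0.33% at 50X. The slope was -0.09 (SE 0.02, limma adjusted p = 0.0325). Its shares were in the order of concentration on all 5 arrays, yet neighbouring arrays differed by less than the larger SD of their spots. The lowest members on these arrays were features 38 and 39. Feature 38 held 0.213 ± 0.027% at 0.1X, 0.277 ± 0.022% at 1X and 0.323 ± 0.0075% at 5X, and its slope was 0.11 (SE 0.02, limma adjusted p = 0.0270). Feature 39 held 0.203 ± 0.026% at 0.1X, 0.286 ± 0.024% at 1X and 0.329 ± 0.044% at 5X, with a slope of 0.13 (SE 0.02, limma adjusted p = 0.0270). Both stayed within the last 16 of the 212 ranks on these arrays. Their fluorescence did not rise with their share, and in both dyes it was lower at 1X than at 0.1X. In Cy5, feature 39 averaged 1112 at 0.1X, 1061.5 at 1X and 1132 at 5X, and feature 38 averaged 1165, 1014 and 1183.5. The 5th percentile of all 384 features in Cy5 was 1097, 995 and 1165 in that order. Both features thus lay near the lowest features of the array, which limits what their slopes can show.

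Features 97 and 52 had the largest ratios of highest to lowest share over the lower arrays, 6.55 and 4.33. Feature 97 held 3.32 ± 0.88% at 0.1X, 0.682 ± 0.22% at 1X, 0.508 ± 0.089% at 5X, 0.820 ± 0.12% at 10X and 0.807 ± 0.23% at 50X. It ranked 3 at 0.1X, 21 at 1X and 37 at 5X. Feature 52 held 2.22 ± 0.43% at 0.1X, 0.717 ± 0.18% at 1X, 0.512 ± 0.068% at 5X, 0.516 ± 0.034% at 10X and 0.354 ± 0.087% at 50X. It ranked 7 at 0.1X, 17 at 1X and 35 at 5X. In both, the 0.1X array stood alone, and the shares on the other 4 arrays lay between 0.354% and 0.820%. The slopes were -0.49 (SE 0.08) for feature 97 and -0.38 (SE 0.05) for feature 52, with a limma adjusted p of 0.0270 each.

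The high values at 0.1X were present in all 4 spots of both dyes. The Cy5 spots of feature 97 read 1815, 1845, 1428 and 1624 at 5X and 11409, 10454, 11842 and 7175 at 0.1X. Its Cy3 spots read 257, 296, 179 and 218 at 5X and 5199, 4477, 2706 and 1521 at 0.1X. Feature 52 had Cy5 spots of 2199, 1807, 1421 and 1831 at 5X and 13354, 11342, 10355 and 6376 at 0.1X and Cy3 spots of 282, 195, 192 and 220 at 5X and 2530, 1769, 1479 and 1107 at 0.1X. In both features every spot at 5X read below every spot at 0.1X of the same dye.

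**Figure D3:**
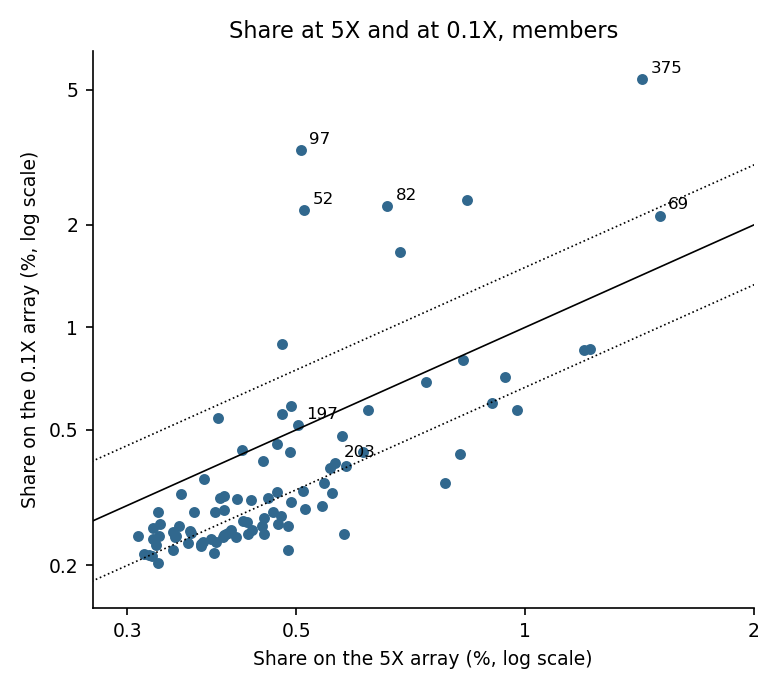
Share of the 92 members on the 0.1X array against that on the 5X array (%, dyes averaged, log scales), with equality as a solid line and 1.5-fold as dotted lines. Of the members, 39 lie below the lower dotted line and 7, all of high share, above the upper one.

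Other members held. Features 181 and 359 had the smallest ratios over the lower arrays, 1.04 and 1.06. Feature 181 held 0.435 ± 0.041% at 0.1X, 0.444 ± 0.096% at 1X, 0.425 ± 0.096% at 5X, 0.350 ± 0.053% at 10X and 0.431 ± 0.11% at 50X. Its rank was nevertheless 41 at 0.1X, 55 at 1X, 86 at 5X, 142 at 10X and 91 at 50X, so that a level share went with different places in the order. Feature 359 held 0.80 ± 0.13% at 0.1X, 0.782 ± 0.11% at 1X, 0.829 ± 0.12% at 5X, 0.888 ± 0.25% at 10X and 1.21 ± 0.28% at 50X. It kept a rank between 12 and 16 on all 5 arrays. The slopes were -0.01 and 0.01 and were not called (limma adjusted p = 0.823 and 0.747).

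Some members had shares on the lower arrays that lay mostly above or below those on the upper ones, whether or not the lower shares were level. Feature 82 was the farthest above its 10X and 50X level, with 2.28 ± 0.62% at 0.1X, 1.18 ± 0.30% at 1X, 0.659 ± 0.26% at 5X, 0.390 ± 0.044% at 10X and 0.475 ± 0.028% at 50X. Its slope over the lower arrays was -0.31 (SE 0.02, limma adjusted p = 0.0270). Feature 197 was the farthest below, with 0.515 ± 0.13% at 0.1X, 0.556 ± 0.082% at 1X, 0.503 ± 0.091% at 5X, 0.866 ± 0.11% at 10X and 1.23 ± 0.29% at 50X. Its 3 lower shares differed by less than the SD of their spots, and those at 10X and 50X lay above all 3. Feature 203 was next, with 0.40 ± 0.082% at 0.1X, 0.596 ± 0.080% at 1X, 0.563 ± 0.071% at 5X, 0.808 ± 0.060% at 10X and 1.11 ± 0.096% at 50X. For these members a steady ratio of 50X to 10X in the mean of the dyes did not extend to the arrays below. By dye, the ratio was 2.00 in Cy5 and 0.906 in Cy3 for feature 197, and 1.89 in Cy5 and 1.04 in Cy3 for feature 203. For feature 82 it was 1.21 in Cy5 and 1.22 in Cy3. Features 197 and 203 were thus not steady in Cy5.

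**Figure D4:**
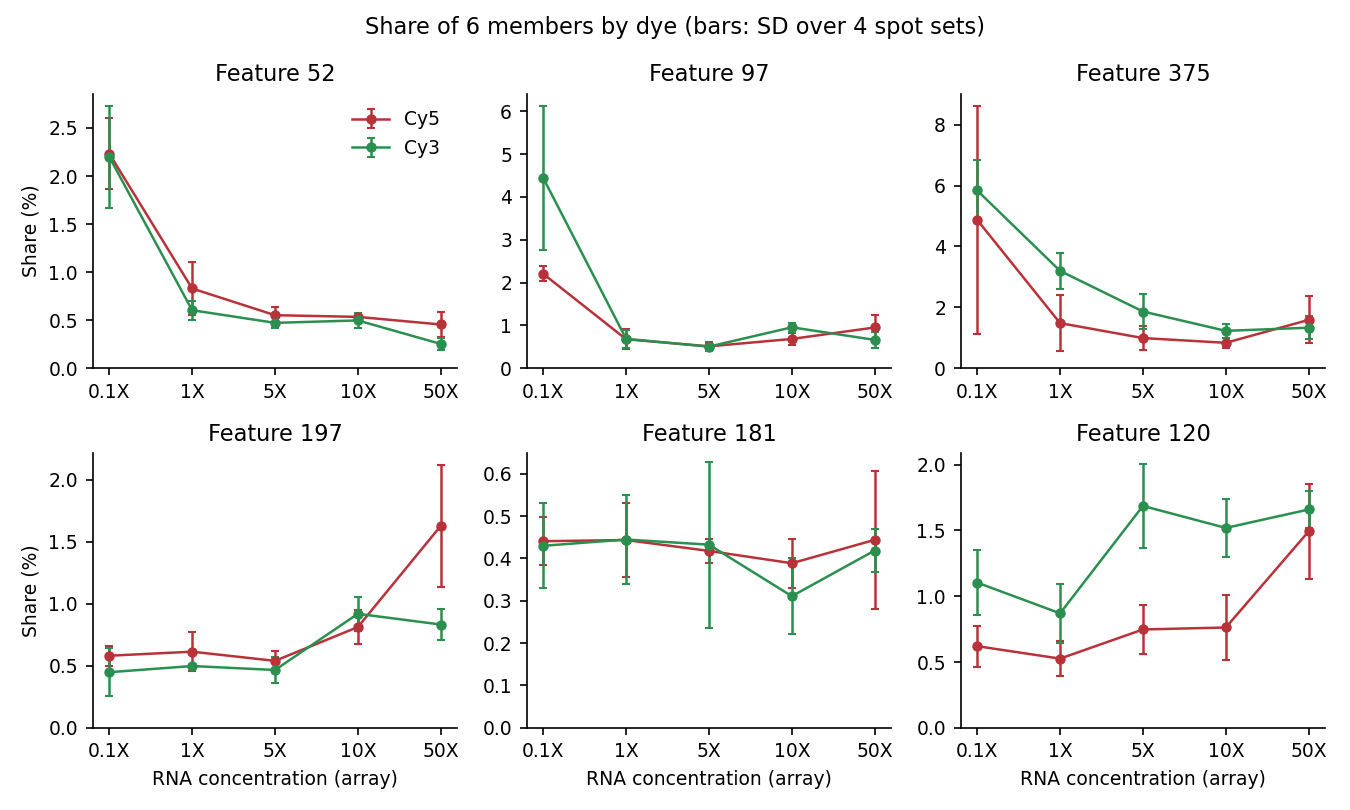
Share (%) of 6 members on the 5 arrays in Cy5 (red) and Cy3 (green), with bars for the SD over 4 spot sets. Features 52, 97 and 375 are highest at 0.1X, feature 181 is level, feature 197 is highest at 50X in Cy5, and feature 120 lies higher in Cy3 than in Cy5 on each array.

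The rank order of the members was also compared among the lower arrays. Over the 92 members, Spearman's rho of the shares was 0.861 between 1X and 0.1X, 0.779 between 5X and 0.1X and 0.900 between 5X and 1X. The mean of these 3 was 0.847 in members and 0.731 in all 212 listed features. Each spot set taken singly gave the members a lower mean rho, between 0.703 and 0.730. The features of an array share its hybridisation and are not independent replicates, so these correlations are a description. By dye, the mean rho of the members was 0.865 in Cy5 and 0.783 in Cy3. Pearson's r of log2 share between 5X and 0.1X was 0.723 in members.

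The places at the top changed more. Of the 10 highest members of the 0.1X array, 6 were among the 10 highest at 1X and 5 at 5X, and 8 were shared between 5X and 1X. Only 1 member was among the 10 highest on all 5 arrays. Among the 53 highest listed features there were 28 members at 0.1X, 34 at 1X, 38 at 5X, 39 at 10X and 21 at 50X. Members made up 43.4% of the listed features. The 10X and 50X arrays chose the members, so the fall between them is part of the choice. The 36 features with a ratio above 1.5 took 30 of the 53 places at 50X, against 6 at 10X. The median member moved 31 places between 5X and 0.1X and 14.5 places between 5X and 1X, of 212 places in all. The median over all listed features was 35.5 and 23 places.

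Within an array the dyes ranked the members alike. Spearman's rho between the Cy5 and Cy3 shares of the 92 members was 0.849 at 0.1X, 0.860 at 1X, 0.911 at 5X, 0.962 at 10X and 0.813 at 50X. It was lowest on the 50X array. Over all listed features rho was 0.801 at 0.1X, 0.701 at 1X, 0.788 at 5X, 0.913 at 10X and 0.929 at 50X. The members thus stood above the list on every array except 50X. The 10X and 50X arrays took part in the choice. The 50X array was also that with the widest Cy5 spread between spots. The median CV of the 4 Cy5 spots of a member was 14.5% at 0.1X, 14.8% at 1X, 9.61% at 5X, 18.3% at 10X and 43.1% at 50X. For Cy3 it was 14.9%, 17.7%, 19.8%, 18.2% and 16.5% in that order. The highest of the 4 Cy5 spots at 50X was 2.89 times the lowest in the median member, so that the spots of 1 feature often differed by more than the 1.5-fold that chose the members. The part of this spread in the choice was not tested.

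The steadiness of the mean between 50X and 10X was in many members not that of each dye, which is given as a description of the chosen contrast. Both dyes taken singly were within 1.5-fold in 46 members, and these were all the listed features in which both were (21.7%). Cy5 alone was within 1.5-fold in 17 members (15.1% of listed features), Cy3 alone in 26 (22.2%), and neither in 3 (41%), in which the dyes lay on opposite sides. The ratio of the 50X share to the 10X share ran from 0.387 to 2.33 in Cy5 and from 0.508 to 2.82 in Cy3, with a median of 0.968 in each. In 42 members one dye gave a ratio above 1 and the other a ratio below 1. Over all listed features 44 did (20.8%), and these include the 42 members. The rule was set on the mean of the dyes, in which opposite ratios offset each other, so the percentages of listed features here are no independent comparison.

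Among members in which Cy5 gave the higher ratio the dyes differed most in features 320 and 291, and among those in which Cy3 did, in features 41 and 137. Several further members with the higher ratio in Cy3 differed more than features 320 and 291 did. Feature 320 had a Cy5 share of 1.54 ± 0.30% at 50X and 0.661 ± 0.16% at 10X, and a Cy3 share of 0.900 ± 0.097% at 50X and 1.01 ± 0.090% at 10X. Its ratio was 2.33 in Cy5 and 0.893 in Cy3. Feature 41 had a Cy5 share of 0.239 ± 0.14% at 50X and 0.339 ± 0.053% at 10X, and a Cy3 share of 0.568 ± 0.20% at 50X and 0.201 ± 0.031% at 10X. Its ratio was 0.705 in Cy5 and 2.82 in Cy3. The ratios of feature 291 were 1.32 in Cy5 and 0.538 in Cy3, and those of feature 137 were 0.512 in Cy5 and 1.81 in Cy3. In these features the averaged share was steady while at least 1 dye was not.

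**Figure D5:**
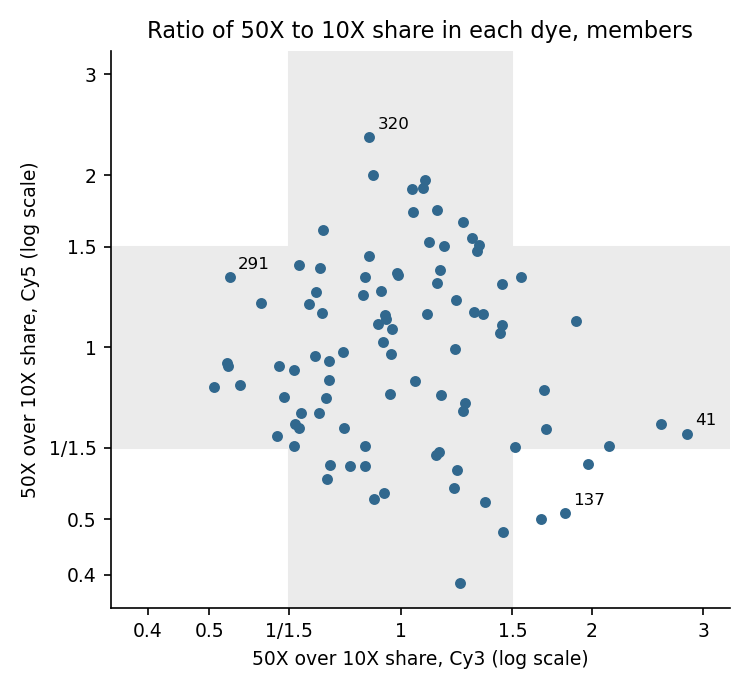
Ratio of the 50X share to the 10X share in Cy5 against that in Cy3 for the 92 members (log scales), with grey bands from 1/1.5 to 1.5 in each dye. The 46 members where the bands cross were steady in both dyes, and the numbered features are the 2 in each direction in which the dyes differed most.

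Before any further normalisation, the Cy5 share was above the Cy3 share on all 3 lower arrays in 52 members (63.7% of listed features) and below it on all 3 in 11 (8.96%), while 29 had mixed signs (27.4%). Limma tested the log2 ratio of Cy5 to Cy3 share on these arrays after loess within each array. It called 2 of 92 members, where 1.42% of the 212 listed features were called, both with the lower share in Cy5. Unadjusted, 26 members had a p below 0.05, as had 28.8% of listed features. After loess the median log2 ratio of the members was -0.06, with values between -0.57 and 0.50.

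Feature 120 was one of the 2. Its Cy5 share was 0.621 ± 0.16% at 0.1X, 0.526 ± 0.13% at 1X and 0.748 ± 0.19% at 5X. Its Cy3 share was 1.10 ± 0.25% at 0.1X, 0.870 ± 0.23% at 1X and 1.69 ± 0.32% at 5X. Cy5 was thus the lower dye on each array, and the loess-normalised log2 ratio of Cy5 to Cy3 was -0.57 (SE 0.08, limma adjusted p = 0.0271). The other was feature 279, which is named because it was called, after its values were seen, with a log2 ratio of -0.49 (SE 0.08, limma adjusted p = 0.0359). The calls depended on the spots and arrays used, the size of the difference in feature 120 less so. With any 1 of the 4 spot sets left out, or with the 1X array left out, limma called 0 members and 0 listed features. In these fits 14 to 27 members had an unadjusted limma p below 0.05, as had 30 to 54 listed features, members included. The log2 ratio of feature 120 was then between -0.63 and -0.49, with a limma adjusted p between 0.0810 and 0.148. Without the 0.1X array limma called 6 members (7.08% of listed features), and without the 5X array 11 (16.5%).

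Features 13 and 155 had the largest Cy5 shares relative to Cy3 with 1 sign on the 3 lower arrays before loess. Feature 13 had a log2 ratio of Cy5 to Cy3 share of 0.91 at 0.1X, 0.57 at 1X and 0.18 at 5X. Feature 155 had 0.69 at 0.1X, 0.72 at 1X and 0.20 at 5X. In the other direction, after feature 120, feature 375 had -0.26 at 0.1X, -1.11 at 1X and -0.91 at 5X. After loess, features 13, 155 and 375 were at 0.22, 0.23 and -0.17, and none was called (limma adjusted p = 0.163, 0.113 and 0.356).

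The 4 spots of a member give a direct measure of whether 2 arrays differed beyond the spread within them. All 4 Cy5 shares at 5X lay above all 4 at 0.1X in 40 members (53.8% of listed features) and below in 6 (4.25%), and they overlapped in 46. All 4 Cy3 shares at 5X lay above all 4 at 0.1X in 44 members (49.5% of listed features) and below in 7 (7.08%), and overlapped in 41. Between 5X and 1X the Cy5 shares lay wholly above in 10 members (16.5% of listed features) and wholly below in 2 (1.89%), and the Cy3 shares above in 7 (13.2%) and below in 1 (3.3%). The spots of most members thus overlapped between 5X and 1X, and those of 46 members in Cy5 and 51 in Cy3 were apart between 5X and 0.1X.

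The fluorescence behind these shares was low on the lower arrays, and in Cy5 at 10X as well. The median Cy5 fluorescence of the members was 1582 at 0.1X, 1435 at 1X, 1490.5 at 5X, 625 at 10X and 11625 at 50X. The median Cy3 fluorescence was 197, 166, 197, 492 and 6459 in that order. In neither dye was the median higher at 5X than at 0.1X, and the Cy5 median was lowest at 10X. Fluorescence thus did not follow the amount of RNA below 50X in Cy5 or below 10X in Cy3. The reason was not tested. The members with more than 2 times the 5th percentile of all 384 features numbered 23 at 0.1X, 14 at 1X, 9 at 5X, 19 at 10X and 92 at 50X in Cy5. In Cy3 they numbered 36, 33, 26, 67 and 92. Most members thus lay near the lowest features of the array at 0.1X, 1X and 5X in both dyes and at 10X in Cy5. All lay above them at 50X. The 10X array took part in the choice, so this limit also applies to the Cy5 part of the chosen ratio. No spot of a member reached 65535, the most a spot can read. With that 5th percentile subtracted, 15 of the 92 members kept within 1.5-fold over the 3 lower arrays, 9 in Cy5 and 12 in Cy3, and 2 held their 10X share on all 3. The percentage of listed features was not calculated for these counts.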

How the data were processed

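The authors deposited the intensity of every spot in Cy5 and Cy3 for the 5 arrays, quantified from the scanned images with ImaGene, with no normalisation between arrays and no background value. They also deposited a table of intensity for 212 features, selected by their detection criteria, with a common total for every dye and array and the mean of both dyes as the value. The sources used here do not say how many fish gave the cardiac RNA of these arrays.

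The members and lists were chosen with earlier results of these data known. Shares, counts within 1.5-fold, ranks and spot overlaps were computed in Python 3.11.15 (scipy 1.17.1, pandas 2.3.3, numpy 2.4.6). R 4.3.3 with limma 3.58.1 (eBayes after lmFit, two-sided, Benjamini-Hochberg over 212 features, threshold 0.05) tested the log2 ratio of Cy5 to Cy3 share after loess (span 0.3, 4 iterations), and the slope of log2 share on log2 concentration, on the 0.1X, 1X and 5X arrays. On simulated data of 212 features the dye test recovered 50 of 50 changed features and called 2 others. The slope test recovered 50 of 50 and called 4 others. Member slopes ran from -0.49 to 0.22 and member log2 dye ratios from -0.57 to 0.50. Recovery of differences of these sizes was not tested.

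Features were named, at most 2 per direction, as those of highest and lowest mean share, of smallest and largest ratio over the lower arrays, farthest above and below their 10X and 50X level, with the largest dye differences of 1 sign, at the limits of the chosen range, and with the largest dye disagreement between 50X and 10X. The alternatives were the tolerance, each dye, the median of the spots, other scalings, subtraction of the 5th percentile (values below 1 set to 1), other dye normalisations, other sets of arrays and each spot set left out. Leaving out each lower array in the counts and rank correlations was added after seeing the data. The number of arrays limits the precision.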

Additional observations from a re-analysis of the deposited data

How the results depend on the processing

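The counts of members at other tolerances are out of the same 92 members, not of the features then chosen. With a tolerance of 5/4-fold, 50 features were chosen. Of the 92 members, 14 were then steady over the lower arrays (18 in Cy5, 10 in Cy3), 10 held their 10X share and 14 were steady in both dyes between 50X and 10X. With 2-fold, 135 features were chosen. Of the 92 members, 83 were then steady over the lower arrays (65 in Cy3), 67 held their 10X share and 85 were steady in both dyes. Scaled to the sum over all 384 features, 21 were steady (26 in Cy5, 16 in Cy3) and 17 held their 10X share. Scaled to the median of the listed features, 74 were steady (66 in Cy3), 58 held their 10X share and the slope was called in 15. With the 5th percentile subtracted, 15 were steady (9 in Cy5, 12 in Cy3), 2 held their 10X share, the slope was called in 19 and the dye ratio in 0. Fits over all 5 arrays include those that chose the members and are no test of them. Limma then called the slope in 0 members (unadjusted, 26 members and 35 listed features) and the dye ratio in 11 (24 listed features). The dye ratio was called in 0 members with the median of the spots (unadjusted, 23 members and 55 listed features). It was called in 15 with median centring (19 listed features) and in 39 with sum normalisation only (117 listed features). The 15 were all lower in Cy5. Of the 39, 27 were higher in Cy5 (97 listed features) and 12 lower (20 listed features), so the direction also depended on the normalisation. The mean rank correlation was 0.865 in Cy5 and 0.783 in Cy3. Most counts in this section are of members, without the percentage of listed features beside them, and compare settings only.

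With 1 spot set or 1 lower array left out in turn, the last chosen after seeing the data for the counts and correlations, the members steady over the lower arrays numbered 37 to 88 (45 to 89 in Cy5, 27 to 82 in Cy3), those holding their 10X share 31 to 70, the mean rank correlation was 0.779 to 0.900, and limma called the dye ratio in 0 to 11. Leaving out spot set 4 gave the 45 in Cy5, leaving out the 0.1X array the 88, 89, 82, 70 and 0.900. The slope was called in 51 to 65 members with 1 spot set left out, and in 118 to 151 listed features, members included. The causes were not tested. No pairing between concentrations was possible because each concentration has 1 array and the labels give no replicate numbers shared between groups. The dye test alone was paired, Cy5 with Cy3 within an array as read from the names.

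Each concentration had 1 array, so nothing shows how far 2 arrays of 1 concentration would differ, and on the lower arrays most members lie near the lowest fluorescence of the array, which limits what their shares can show.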

Other observations

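The members were not spread evenly over the printed grid. Each block of spots has 48 columns. Members made up 7 of 39 listed features in the first 8 columns, 19 of 45 in columns 9 to 16, 27 of 42 in columns 17 to 24, 11 of 29 in columns 25 to 32, 19 of 33 in columns 33 to 40 and 9 of 24 in columns 41 to 48. By row of the block, members made up between 31.6% and 56.7% of the listed features, against 43.4% over the whole list. Of 121 pairs of listed features printed side by side in a row, both were members in 26, 1 was in 52 and neither was in 43. The counts of pairs that an even spread would give were not calculated, so these pairs do not show an uneven one. The longest run of members with consecutive feature numbers was 5. No test was made of this arrangement.

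The members that a single dye would have chosen were partly others. Cy5 alone chose 78 listed features, of which 63 were among the 92 members, 68.5% of the members and 80.8% of those chosen by Cy5. Cy3 alone chose 93, of which 72 were members, 78.3% of the members and 77.4% of those chosen by Cy3. With the 5th percentile subtracted, 69 were chosen and 51 of them were members, 55.4% of the members and 73.9% of those chosen.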
